A study of Mus musculus with 7 samples.

Results

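RelB binding before stimulation was described in dendritic cells derived from mouse bone marrow (BMDCs). These are professional antigen-presenting cells, cultured here with 20 ng/ml of GM-CSF and 10 ng/ml of IL-4. The members were all 93611 regions of the deposited signal table, read in 3 of its 7 chromatin immunoprecipitation (ChIP-seq) libraries. The WT library was a RelB ChIP from wild-type C57BL/6 cells at 0 h with no treatment. The RelBko library was a RelB ChIP with the same antibody from C57BL/6 cells labelled as lacking RelB, also at 0 h and untreated. The input library was WT DNA without antibody, and its label gives no time or treatment. The other libraries are RelB or RelA ChIPs from WT or RelBko cells, labelled as 1 h with LPS at 10 ng/mL. Their values are used only where a 1 h library is named. Each group held 1 library, so no difference had a replicate check and no test across conditions was possible. None of the sources used here gives how the RelBko allele was made or how many animals each culture came from. ChIP signal does not measure expression, so the labelled cell type could not be checked against marker transcripts.

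NF-kB is a family of DNA-binding dimers built from RelA, RelB, c-Rel, p50 and p52. RelB pairs mainly with p52 or p50 and is the dimer partner released by the noncanonical pathway, in which the kinase NIK drives processing of the p52 precursor while TRAF3, TRAF2 and the cIAP proteins keep NIK low. RelB is prominent in dendritic cells, where it is required for normal development and maturation. The classical inhibitor IkB-alpha is itself encoded by an NF-kB target gene, which gives the system a feedback loop.

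The promoters below are those of 4 genes with high basal RelB signal and a match to an NF-kB (kB) motif near the start site. Birc3 is added as a gene with high signal and no match in the promoter sequence searched. Each is shown 5′ to 3′ from 100 bases before to 29 bases after the transcription start site (TSS), with the matches in capitals. Sequences and start sites are RefSeq's on GRCm38.p6, a later build than the mm9 coordinates of the regions. The stretches are chr12:55492618-55492747 (- strand) for Nfkbia, chr12:111166270-111166399 (+ strand) for Traf3, chr19:46305600-46305729 (- strand) for 4833438C02Rik, chr8:46739645-46739774 (+ strand) for Irf2 and chr9:7873141-7873270 (- strand) for Birc3.
Nfkbia: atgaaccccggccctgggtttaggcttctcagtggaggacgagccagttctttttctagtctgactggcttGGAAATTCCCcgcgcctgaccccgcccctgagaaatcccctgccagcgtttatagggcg
Traf3: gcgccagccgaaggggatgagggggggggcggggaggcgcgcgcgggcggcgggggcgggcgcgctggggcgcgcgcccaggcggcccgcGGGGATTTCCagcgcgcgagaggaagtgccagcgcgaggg
4833438C02Rik: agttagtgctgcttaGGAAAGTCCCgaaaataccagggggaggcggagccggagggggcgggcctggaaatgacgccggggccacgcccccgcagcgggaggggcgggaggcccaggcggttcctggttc
Irf2: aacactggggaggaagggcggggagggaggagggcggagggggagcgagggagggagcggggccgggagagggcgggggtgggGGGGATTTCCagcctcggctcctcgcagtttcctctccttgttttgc
Birc3: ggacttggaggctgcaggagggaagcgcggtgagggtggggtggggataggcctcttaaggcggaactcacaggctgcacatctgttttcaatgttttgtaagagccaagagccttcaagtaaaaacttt

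The motif starts 29 bases before the start site in Nfkbia, 10 in Traf3, 85 in 4833438C02Rik and 17 in Irf2. The matches of Nfkbia and 4833438C02Rik also meet a stricter motif described further on. A match is a run of letters, and its occupancy was not measured at this resolution.

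The WT library rested on 35064429 reads, the RelBko library on 17485035 and the input on 13188833, as recovered from the deposited RPKM values (read density per region length and library size). The regions held 38.4%, 7.41% and 3.52% of those reads. A region had a median of 72 reads in WT, 10 in RelBko and 4 in the input, and 1 to 3 reads lay behind 0.807%, 9.60% and 35.4% of the regions. Low RelBko and input values are therefore much less exact than WT values. Intervals printed here are 95% intervals. Those of read ratios cover counting error alone, and reads that carry no molecular identifier need not be independent molecules. Those of shares treat regions or promoters as independent draws. Neither kind covers the spread between libraries.

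Basal RelB signal was found at most of the deposited regions. The rule that chose those regions is not given in the sources, so shares of them do not describe the genome. With enrichment set at 2 RPKM or more and 2-fold or more over the input, 71023 of the 93611 regions (75.9%) were enriched in WT and 22528 (24.1%) in RelBko. Of the RelBko-enriched regions 97.2% were also enriched in WT, which is 30.8% of the WT-enriched regions, and 626 were enriched in RelBko alone. Among the 71649 regions enriched in either library, 61621 (86.0%) were at least 2-fold higher in WT, 361 (0.504%) were at least 2-fold lower and 9667 (13.5%) lay within 2-fold. The median difference was 3.61-fold (log2 1.85). The filter favours regions that are high in WT, since 71023 of the 71649 passed it in WT. With no filter, 65452 of all 93611 regions (69.9%) were higher and 824 lower, with a median log2 ratio of 1.54. Folds here are on RPKM plus a pseudocount of 0.5, a scale that understates weak regions.

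That split depended on scaling. The deposited scale put 99.4% of the called regions on the higher side. With both libraries scaled to a median ratio of 1, a shift of 1.85 on the log2 scale, 10933 regions were higher and 7048 lower, so that 60.8% of calls were on the higher side. With scaling on regions enriched in neither library, a shift of 0.42, 49761 were higher and 481 lower, or 99%. Levels and directions below are on the deposited scale, and the median-ratio scale is given beside the gene groups.

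The regions lower in WT were narrow and weak. Of the 361, 297 (82.3%) were 170 bp or shorter, against 1.61% of the higher regions and 2.24% of all regions. Their median was 0.671 RPKM in WT, 3.70 in RelBko and 0.892 in the input. Without regions of that length, an alternative chosen after seeing the data, 64 were lower and 60631 higher. The lower region with the most RelBko signal lay in an exon within 2216 bp of the TSS of Mybpc3, a cardiac myosin-binding protein gene (chr2:90960354-90960681), with 1.22 RPKM in WT, 128 in RelBko and 1.16 in the input. After it, the RelBko maximum among lower regions was 10.1 RPKM, at 1 of the narrow regions, near Ndufb7. This second region was named after its value was seen.

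Promoters had the highest median RelB signal of the 8 classes, while regions of 50 RPKM or more were less frequent in them than between genes. Promoters made up 11% of the regions, introns 44.1% and intergenic DNA 39.2%. The median WT level was 9.34 RPKM in promoters, 8.48 in 5' UTRs, 5.03 in introns, 4.85 in intergenic regions and 4.74 in exons. The share of regions reaching 50 RPKM ran in another order. It was 3.73% in intergenic regions (95% Wilson interval 3.55 to 3.93), 3.17% in introns (3.00 to 3.34), 2.64% in promoters (2.35 to 2.97) and 0.851% in exons (0.507 to 1.42). In this library the median promoter thus carried more signal than the median intergenic region, while a strong site was less frequent there. The intervals treat regions as independent draws, which neighbouring regions need not be.

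RelBko signal was also higher in promoters. The RelBko median was 3.34 RPKM in promoters and 3.17 in 5' UTRs, against 1.39 in introns and 1.30 in intergenic regions. The input moved the same way but less, from 0.862 RPKM between genes to 1.27 in promoters. In RelBko, 52.3% of promoter regions were enriched over input, against 20.7% of intron and 19.3% of intergenic regions. Of the compared promoters, 74.3% were higher in WT (73.4 to 75.2), with a median 2.61-fold difference, against 87.9% and 3.79-fold in introns and 89.0% and 3.98-fold between genes.

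**Figure D1:**
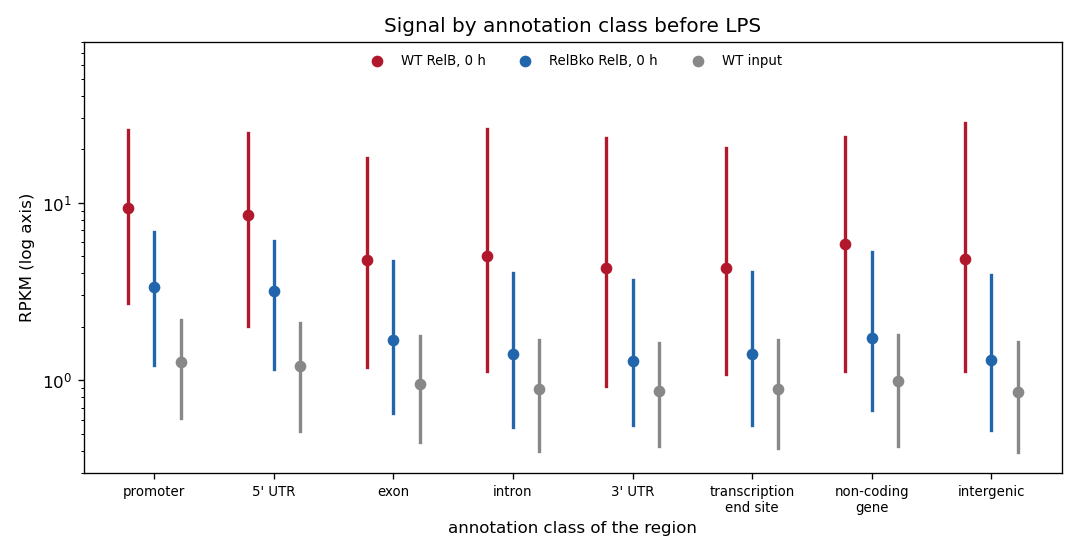
Signal by annotation class. Points are medians over regions and bars run from the 10th to the 90th percentile of regions (not an error), in RPKM on a log axis, for WT RelB, RelBko RelB and WT input. Promoters and 5' UTRs had the highest medians in all 3 libraries, 9.34, 3.34 and 1.27 RPKM in promoters.

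The lower share of promoters called higher depended on the library used as control. The RelBko RelB library at 1 h came from LPS-treated cells, so it differs from the unstimulated WT library in genotype and treatment. With it as the control, 96.9% of promoters were higher in the unstimulated WT library, with a median 4.74-fold difference. The values were 94.8% and 5.18-fold in introns and 94.7% and 5.34-fold between genes. The order of the shares was then the other way round, while the fold stayed smallest in promoters among these 3 classes. With the 0 h libraries scaled to a median ratio of 1, 498 promoters were higher and 1672 lower, against 4995 and 2642 introns and 5047 and 2098 intergenic regions. With scaling on regions enriched in neither library, 47.7% of promoters, 72.8% of introns and 74.8% of intergenic regions were higher. Promoters thus kept the lowest share of these 3 classes under each scaling of the 0 h libraries. Within the 0 h comparison the promoter excess in RelBko held at matched WT levels. At 10 to 20 RPKM in WT, RelBko medians were 4.45 RPKM in promoters, 2.37 in introns and 2.19 between genes, with input medians of 1.41, 1.08 and 1.05 RPKM. At 20 to 50 RPKM they were 6.03, 3.72 and 3.58 RPKM. At 100 RPKM or more the gap was smaller, with 9.74, 7.53 and 7.94 RPKM. The input was higher in promoters at each of these levels too, and its part in the difference was not tested.

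**Figure D2:**
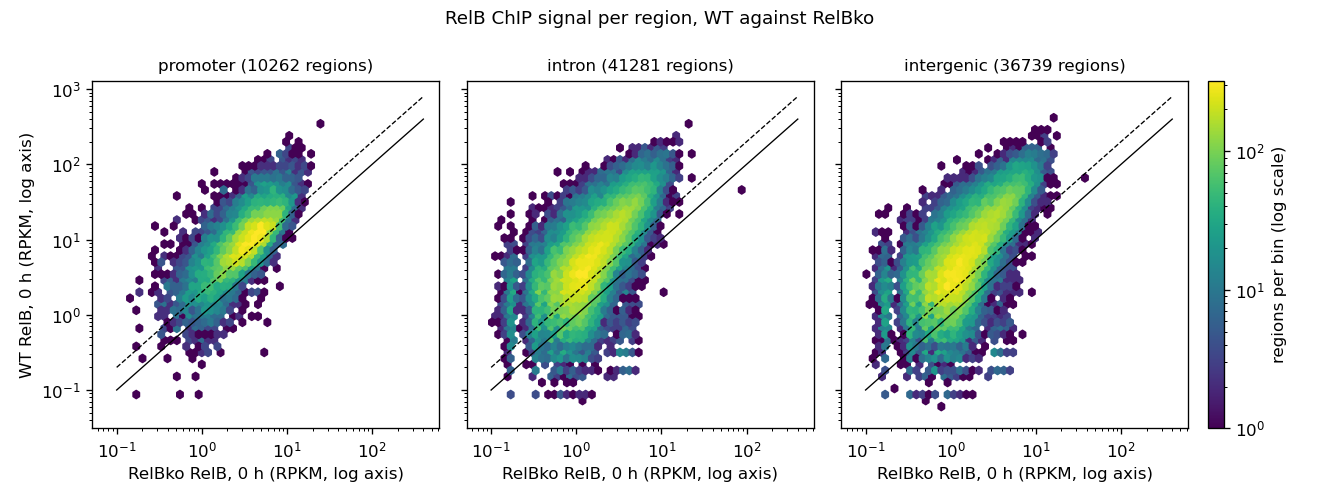
WT against RelBko RelB signal per region at 0 h, in RPKM on log axes, for promoters, introns and intergenic regions, coloured by the number of regions in each bin. The solid line marks equal signal and the dashed line a 2-fold difference without pseudocount. Promoter regions sit nearer the lines, with a median 2.61-fold difference in the compared promoters against 3.98-fold between genes.

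Signal levels spanned a wide range without a few sites dominating. The WT level was 1.20 RPKM at the 10th percentile, 5.46 at the median, 26.4 at the 90th, 80.7 at the 99th and 376 at most. Of the WT signal left after taking off the RelBko level region by region, the top 1% (936 regions, from 80.8 RPKM up) held 11.2%, the top 10% held 48.0% and the top 50% held 91.3%. A level of 50 RPKM was reached by 3045 regions (3.25%) and 100 RPKM by 475 (0.507%). These 3045 are called strong regions from here on.

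The class mix changed with the level. Promoters made up 3.50% of regions under 2 RPKM, 15.7% at 5 to 10 RPKM, 19.8% at 10 to 20, 13.0% at 20 to 50, 8.95% at 50 to 100 and 8.63% (6.43 to 11.5) at 100 or more. Intergenic regions followed the reverse course, with 43.4% of the weakest, 34.2% at 10 to 20 RPKM and 49.5% of the strongest. RelBko signal rose with WT level, from a median of 0.846 RPKM under 2 RPKM to 8.08 at 100 or more, and the input from 0.665 to 1.57. Of the 475 strongest regions, 450 were also enriched in RelBko. The ratio still widened, from 1.22-fold to 15.4-fold, although this ratio shares its numerator with the levels that define the tiers.

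Among the distance bins used, the values changed most between regions within 1 kb of the TSS and those at 1 to 10 kb. Finer bins were not used, so the place of the change is not known. Promoters made up 69.6% of the regions within 1 kb. Regions within 1 kb had a median of 8.86 RPKM in WT and a median 2.64-fold difference, with 74.5% of the compared ones higher. From 1 to 10 kb the values were 5.80 RPKM, 3.90-fold and 88.1%, and beyond 100 kb 4.09 RPKM, 3.95-fold and 89.6%. Strong regions were most frequent at 1 to 10 kb, at 4.11% (3.84 to 4.40), and reached 2.53% (2.29 to 2.80) within 1 kb. On the X chromosome the WT median was 3.94 RPKM and 0.709% of regions were strong, against 4.98 to 6.08 RPKM and 2.42% to 3.97% on the 19 autosomes. The input median was lower on the X chromosome too, at 0.724 RPKM against 0.857 to 0.975.

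The strongest basal RelB regions lay near genes of NF-kB feedback, genes of chemokines and genes of other functions. The highest value in the table, 376 RPKM in WT, 16.5 in RelBko and 2.13 in the input, was in an intergenic region (chr2:28446908-28447299, mm9) 8304 bp upstream of Gtf3c5, which encodes a subunit of the RNA polymerase III factor TFIIIC. The ratio of reads was 22.8 (18.9 to 27.7). Next was the promoter of Nfkbia (chr12:56593546-56593910), the IkB-alpha gene whose motif is shown above, with 328 RPKM in WT, 23.8 in RelBko and 1.87 in the input, a ratio of 13.8 (11.7 to 16.3). Its first intron region (chr12:56592729-56593084) was nearly as high, with 326, 20.6 and 1.70 RPKM. In both, WT stood far above RelBko, and RelBko stood above the input.

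Of the 20 genes with the highest regions, 13 had them between genes, 3 in introns, 3 at promoters and 1 in a 5' UTR. Rnf19b, a ubiquitin ligase gene, had 295 RPKM in WT, 14.6 in RelBko and 2.24 in the input at 25.4 kb. Sbno2, a transcriptional co-regulator of inflammatory genes in macrophages, had 284, 9.79 and 1.24 RPKM at 3.0 kb, a ratio of 29 (22.6 to 37.8). Nrp2, a semaphorin co-receptor on dendritic cells, had 262, 11.3 and 1.07 RPKM at 14.0 kb. All 3 sites were intergenic and upstream of the named gene, which is the nearest TSS and not a shown target.

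Traf3, which holds the noncanonical pathway in check, had 244 RPKM in WT, 10.5 in RelBko and 1.71 in the input at its promoter (chr12:112404410-112404764), a ratio of 23.3 (18.2 to 30.3). Mefv, the pyrin inflammasome gene, and Cyp11a1, a steroid-synthesis gene, both had 238 RPKM in WT at intergenic sites, with 8.97 and 13.4 in RelBko. Cxcl16, a scavenger-receptor chemokine, had 234 RPKM against 12.3. The promoter of the non-coding 4833438C02Rik had 212 RPKM against 13.8, and its RefSeq promoter overlaps one of Nfkb2 on the other strand. Reads there cannot be given to either gene, since ChIP does not mark strand.

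The remaining top sites had 193 to 234 RPKM in WT and included Nufip1, Lonrf2, Cmtr1, Platr4, Rbpj, Mob3a, Dppa3, Birc3 and Bloc1s6. Platr4, a non-coding gene, had the lowest RelBko value of the 20, 218 RPKM in WT against 4.13, a ratio of 52.6 (35.6 to 81.5). Rbpj, the DNA-binding factor of the Notch pathway, had 208 RPKM against 12.9 at an intergenic site 46.1 kb away. Birc3, encoding cIAP2 of the complex that degrades NIK, had 196 RPKM in WT, 11.1 in RelBko and 0.840 in the input in its 5' UTR (chr9:7872828-7873188), a ratio of 17.7 (13.9 to 22.7). The printed Birc3 stretch has no kB match, nor has its full 300-base promoter. That promoter ends 50 bases after the start site, while the Birc3 region is centred 162 bp downstream of it. Most of the region was therefore not searched, and whether it holds a kB match is not known.

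Within classes the leading sites were again of mixed function. After Nfkbia, Traf3 and 4833438C02Rik, the promoter class was led by Creb1, a cAMP-response transcription factor, with 185 RPKM in WT against 9.40 in RelBko, and by Cd74, the invariant chain of MHC class II, with 179.6 RPKM against 11.1. In exons the highest region, assigned to the nuclear pore gene Nup85, reached 181 RPKM against 5.32, and the next only 93.8. The highest 3' UTR regions were assigned to Stxbp3 at 126 RPKM and Med29 at 109, and the highest transcription end sites to Lfng at 112 and Junb at 107. In non-coding genes the top value belonged to Rn45s, the ribosomal RNA precursor, with 164 RPKM in WT, 50.7 in RelBko and 18.0 in the input. It is a repeated sequence with raised signal in all 3 libraries, so its level cannot be read as RelB binding.

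Signal was spread over most of the genes that have a deposited region. Of 18214 genes with a region within 100 kb, 15064 (82.7%) had at least 1 region higher in WT, with medians of 3 regions and 2 higher regions per gene. The 1060 genes (5.82%) with 10 or more higher regions held 26.9% of such regions. The most were at Foxp1, a forkhead repressor active in myeloid and lymphoid cells, with 52 of 70 regions higher, and Pde4b, a cAMP phosphodiesterase of inflammatory cells, with 46 of 51. Creb5 and Dock10 had 40 each, Elmo1, Lpp and Sgms1 had 35 each, Vav3 had 34, and Jazf1 and Sh3kbp1 had 33 each. Pde4b had 8 strong regions and a maximum of 131 RPKM, while Lpp, with 35 higher regions, had none above 44.9 RPKM. Most of these genes are long, and region counts were not adjusted for gene length.

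Strong regions mostly stood alone. Joined where they lay within 12.5 kb of each other, the 3045 strong regions fell into 2403 loci, of which 1928 (80.2%) held 1 region and 126 held 3 or more. The locus with the highest summed WT signal held 5 regions over 6.9 kb near 2310001H17Rik (735 RPKM summed against 49.8 in RelBko), and no region of it was a promoter. The Nfkbia pair followed with 655 against 44.4, then 3 regions near Rnf19b with 648 against 36.1. Mir7661 (5 regions, 592 RPKM) and Skil, a SMAD corepressor gene (5 regions, 536 RPKM), came next. A630001O12Rik had the largest cluster, 6 regions over 22.3 kb. A stretch of 33.9 kb over Cxcl16, Med11 and Mir7115 held 5 regions with 506 RPKM, and Dppa3, E230013L22Rik and Gpr132 completed the top 10.

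To read pathway genes, each gene was taken at its strongest WT region within 100 kb. Over all 18214 genes this choice gave a median of 12 RPKM in WT, 2.62 in RelBko and 1.09 in the input. By the same choice 14514 genes (79.7%) were higher in WT, the median log2 ratio was 2.0, and 1927 genes (10.6%) reached 50 RPKM. Counts for gene lists are to be read against those shares, since a gene picked at its highest WT region tends to be higher in WT.

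The NF-kB genes themselves carried high basal RelB signal. All 5 NF-kB subunit genes were higher in WT and all 5 reached 50 RPKM, with a median of 105 RPKM. Rela, encoding the main canonical subunit, had 64.5 RPKM in WT, 11.3 in RelBko and 2.82 in the input at its promoter, the lowest of the 5. Nfkb1, encoding the p50 precursor, had the highest WT level among regions assigned to the 5 genes. Its promoter had 128 RPKM against 8.01 and 2.38, a ratio of 16.0 (12 to 21.7). Of the 30 Nfkb1 regions, 22 were higher in WT. Nfkb2, encoding the p52 partner of RelB, had 105 RPKM in WT and 14.3 in RelBko at its promoter, and 0.641 in the input from 3 reads. The 212 RPKM region at the 4833438C02Rik promoter, which overlaps a promoter of Nfkb2, was assigned to 4833438C02Rik and not counted for Nfkb2. Rel, encoding c-Rel, was the exception in position, with its strongest region 52.4 kb upstream at 105, 6.00 and 1.05 RPKM.

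Relb carried 5 regions, which hold DNA of the locus in either genotype and do not check the deletion. Its promoter (chr7:20214655-20215034) had 104 RPKM in WT, 11.9 in RelBko and 2.0 in the input, a ratio of 8.74 (6.96 to 11.1). A region 6094 bp upstream had 88.6, 4.78 and 1.48 RPKM, a ratio of 18.5 (12.9 to 27.6), and one 10180 bp upstream 49.5, 5.62 and 0.639 RPKM. A region 968 bp downstream had 39.2 RPKM against 5.49. The last, 10241 bp downstream, was at background in all 3 libraries, with 1.22, 1.57 and 0.693 RPKM. The 4 others were thus at least 2-fold higher in WT and above input in RelBko as well.

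Inhibitor genes showed the same. All 6 IkB genes were higher in WT and 5 reached 50 RPKM. Nfkbia stood apart at 328 RPKM. Nfkbie, encoding IkB-epsilon, had 126 RPKM in WT, 6.81 in RelBko and 1.63 in the input in an intron, a ratio of 18.6 (14.9 to 23.4). The atypical IkB genes Nfkbiz, Nfkbid and Bcl3, whose products act in the nucleus, had 109, 103 and 65.8 RPKM in WT at their promoters against 9.23, 11.8 and 8.91 in RelBko. Nfkbib, encoding IkB-beta, was the lowest with 40.7 RPKM against 6.37.

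The ubiquitin-editing regulators that shut NF-kB signalling off were also all higher in WT, 9 of 9, with 5 at 50 RPKM or more. Tnfaip3, encoding A20, had 161 RPKM in WT, 10.6 in RelBko and 1.88 in the input at its promoter, and 4 strong regions among 26. Its partners in the ABIN family followed, with 119 RPKM against 5.69 at Tnip3, 73.5 kb upstream, and 77.8 against 10.4 at Tnip1, while Tnip2 had 26.1 against 5.19. The deubiquitinase genes Cyld and Otulin had 61.7 and 54.4 RPKM, against 5.85 and 1.94. Tax1bp1, Itch and Rnf11, parts of the A20 complex, had 41.3, 38.9 and 6.71 RPKM. Rnf11 was near the threshold, with a ratio of 2.25 (1.45 to 3.63).

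In the noncanonical pathway, 16 of 17 measured genes were higher in WT and 8 reached 50 RPKM. The highest levels were at 3 genes of the restraining complex, Traf3 at 244 RPKM, Birc3 at 196 and Traf2 at 150.4, against 10.5, 11.1 and 4.12 in RelBko. The other, Birc2, encoding cIAP1, had 57.0 against 6.39. Traf1, a partner of Traf2, had 130.0 RPKM against 5.13 and 5 strong regions. Map3k14, encoding NIK, which that complex degrades, had 50.3 RPKM against 8.96. The kinase subunit genes were lower, with 16.5 RPKM at Chuk (IKK-alpha), 34.6 at Ikbkb (IKK-beta) and 5.30 at Ikbkg (NEMO), against 2.56, 2.95 and 2.44. Ikbkg was within 2-fold on the scale used, with a ratio of reads of 2.17 (1.20 to 4.21), and has its only region on the X chromosome.

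Receptor and ligand genes of that pathway had 18.9 to 68.7 RPKM in WT. Cd40, the costimulatory receptor, had 68.7 RPKM in WT and 6.43 in RelBko at its promoter, and Tnfrsf11a, encoding RANK, had 54.4 against 2.79. Ltbr, the lymphotoxin receptor gene, had 18.9 against 6.92, a ratio of 2.73 (2.01 to 3.78). The B cell survival receptors Tnfrsf13b and Tnfrsf13c had 34.8 and 27.9 RPKM. Among ligand genes, Lta had 45.1, Tnfsf13b (BAFF) 35.6 and Tnfsf11 (RANKL) 26.8 RPKM, against 7.40, 5.50 and 0.794 in RelBko. Ltb had no assigned region. With scaling to a median ratio of 1, 3 of 5 subunit genes, 4 of 6 IkB genes, 6 of 9 ubiquitin regulators and 9 of 17 noncanonical genes were still at least 2-fold higher and none was lower.

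**Figure D3:**
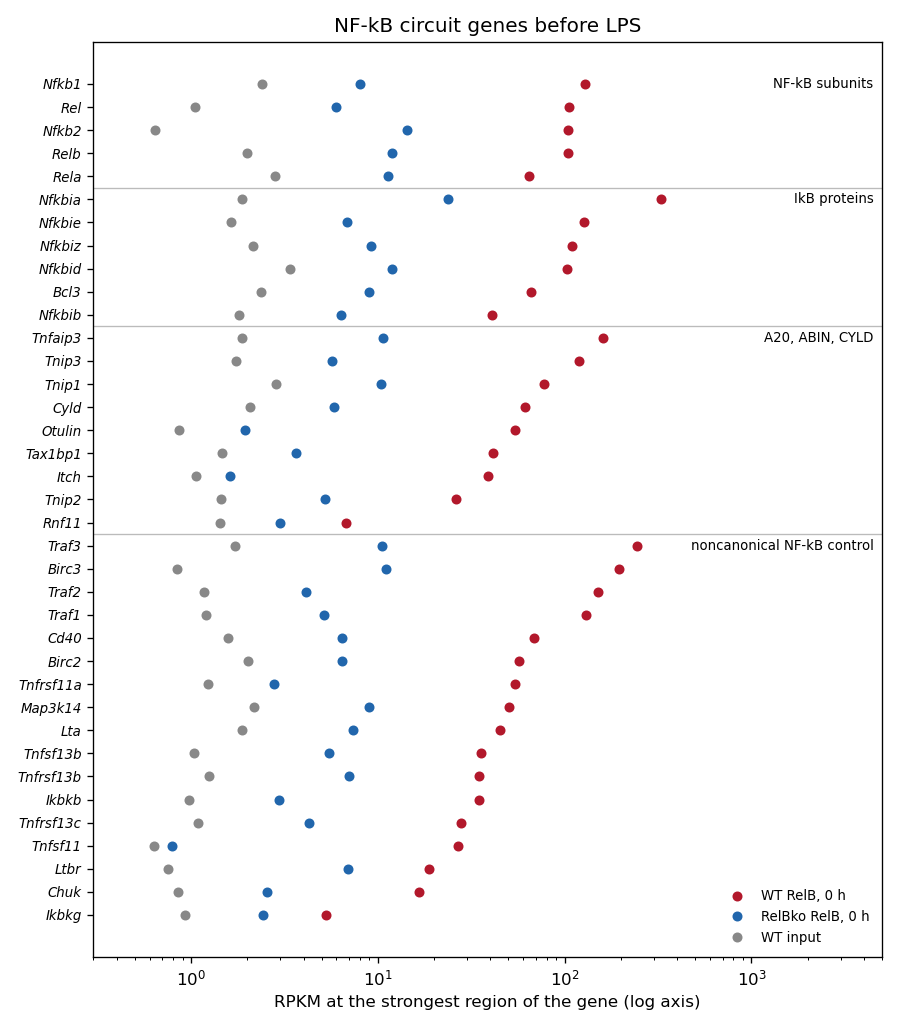
RPKM at the strongest WT region of each gene in 4 groups of NF-kB genes, on a log axis, for WT RelB, RelBko RelB and WT input, 1 library each with no error bars. WT values run from 5.30 at Ikbkg to 328 at Nfkbia and lie above RelBko at every gene shown, and RelBko lies above the input at every gene shown.

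The genes of the LPS receptor stood out less. Of 16 LPS sensing and TLR adaptor genes, 13 were higher in WT, with a median of 15.5 RPKM, and 4 reached 50 RPKM. Those were Tlr9, the CpG DNA receptor, at 125 RPKM in WT against 6.61 in RelBko, Ly96 (MD-2) at 85.1 against 4.09, Tlr2 at 69.8 against 12.7 and the adaptor ligase Traf6 at 62.7 against 7.78. Tlr4 itself had 27.7 against 3.56. Irak1 and Irak4 were within 2-fold, with 5.99 against 3.82 RPKM at Irak1. Lbp, the LPS-binding protein gene, was at background with 1.60, 1.35 and 1.35 RPKM. On the median-ratio scale 4 of the 16 were higher and 1 was lower.

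Inflammatory cytokine genes already carried RelB signal before LPS. All 20 interleukin and TNF genes were higher in WT, with a median of 44.2 RPKM, and 9 reached 50 RPKM. Il12b, encoding the p40 subunit of interleukin 12 and 23, had 151 RPKM in WT, 4.40 in RelBko and 1.08 in the input at an intergenic site 51.6 kb away, a ratio of 34.4 (23.5 to 52.3). Il1a had 149 RPKM against 14.6, Il6 84.7 against 7.21, Il1b 79.4 against 3.34 and Tnf, at its promoter, 66.0 against 6.54. The lowest was Csf3, encoding the granulocyte growth factor G-CSF, at 6.11 RPKM against 2.23. Under median-ratio scaling 10 of the 20 were higher and none lower.

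All 16 chemokine genes were higher in WT, with a median of 82.4 RPKM, and 9 reached 50 RPKM. After Cxcl16 came the CXCR3 ligands Cxcl10 and Cxcl9, with 114 and 106 RPKM in WT against 8.40 and 6.09 in RelBko at their promoters. Ccl5 had 105.5 RPKM against 5.80 at its promoter. Ccl22, a chemokine made by mature dendritic cells, had 105 RPKM against 12.2 and 4 strong regions. The lowest was Ccl7 at 9.24 against 2.46. With median-ratio scaling 11 of the 16 were higher and none lower.

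Maturation genes of dendritic cells were all higher in WT, 25 of 25, with a median of 83.7 RPKM, and 20 reached 50 RPKM. Cacnb3, a calcium-channel subunit gene used as a marker of mature dendritic cells, led with 161 RPKM in WT, 8.32 in RelBko and 2.45 in the input. Ccr7, the chemokine receptor gene for migration into lymph nodes, had 149 RPKM against 14.6 at an intergenic site 13.1 kb away, and 7 of its 13 regions were strong. The surface protein gene Cd83 had 135 RPKM against 9.67, and Relt, a TNF-receptor family gene, 134 against 12.4. Pdcd1lg2, encoding the checkpoint ligand PD-L2, had 122 RPKM against 5.24 with 17 of 17 regions higher. At the low end, Ido1 had 11.2 RPKM in WT and 0.573 in RelBko. On the median-ratio scale 20 of the 25 were higher and none lower.

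Antigen presentation genes were all higher in WT, 19 of 19, but only 5 reached 50 RPKM. Cd74 led with 179.6 RPKM against 11.1. Tapbp (tapasin) followed with 99.8 against 5.10, H2-Aa, an MHC class II chain gene, with 78.7 against 5.66, and the immunoproteasome gene Psmb9 with 75.1 against 7.25. The class II transactivator gene Ciita had 54.0 RPKM against 5.19. H2-DMa was lowest with 6.93 against 1.26. MHC genes belong to a family of similar copies, between which short reads can be shared, so their single values are uncertain. Under median-ratio scaling 11 were higher and none lower.

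Interferon and antiviral genes were weaker as a group, with 24 of 27 higher in WT, a median of 20.5 RPKM and 5 at 50 RPKM or more. The receptor chain genes Ifnar1 and Ifnar2 had 129 and 113 RPKM against 9.40 and 12.7 in RelBko. Ddx58, encoding the RNA sensor RIG-I, had 61.0 against 3.36 and Usp18, an interferon feedback gene, 55.9 against 2.65. The promoter of Ifnb1, the interferon beta gene, had 53.6 RPKM in WT, 1.52 in RelBko and 1.12 in the input, a ratio of 35.2 (18.4 to 77.3). The antiviral effector genes Oas1a and Oas2 were at or near background, with 2.37 against 1.73 RPKM and 0.591 against 0.508. With median-ratio scaling 9 were higher and 1 lower.

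Lineage factor genes of myeloid cells were all higher in WT, 23 of 23, with a median of 63.1 RPKM and 14 at 50 RPKM or more. Their strongest region was at a promoter in 1 of the 23 genes (4.35%). That share was 26.4% over all genes and 10.5% over all genes at 50 RPKM or more. Among the lists it ran from 0% for B cell markers to 80% for NF-kB subunits. Spi1, encoding PU.1, had 148 RPKM in WT, 7.5 in RelBko and 1.73 in the input at 10.2 kb. Runx3, a factor of dendritic cell subsets, had 129.8 RPKM against 16.7, and the interferon regulatory factor genes Irf4 and Irf8 had 102 and 86.9 against 4.89 and 6.47. Klf4 had 99.4 against 8.01. Cebpb had the lowest value, 15 RPKM against 5.01 at its promoter. With median-ratio scaling 17 were higher and none lower.

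Immediate early and stress factor genes gave 21 of 21 higher in WT, a median of 64.2 RPKM and 14 at 50 RPKM or more. Egr3 led with 191 RPKM against 9.56 in an intron region 20.3 kb away. Junb had 118 against 7.98, Ier5 109.5 against 7.51 and Fos 101 against 8.13. Egr1, the best-known member of that list, was lowest with 14.9 against 3.38. Among survival factor genes 14 of 14 were higher with a median of 36.9 RPKM and 6 at 50 RPKM or more. Bcl2a1a led with 80.7 against 4.06, ahead of Mcl1 with 71.6 against 7.09, Bcl2a1b with 69.4 against 1.56 and Pim1 with 65.8 against 9.74. Bcl2 itself was lowest with 10.9 against 1.63. The Bcl2a1 genes are near-identical copies, so their values are uncertain. On the median-ratio scale 10 of the 21 and 6 of the 14 were higher and none lower.

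Genes chosen as background were not empty, and housekeeping genes lay above the median of all genes. Of 19 housekeeping genes 15 were higher in WT, with a median of 22.7 RPKM and 4 at 50 RPKM or more (21.1%). Over all genes the median was 12 RPKM and that share 10.6%. LPS sensing and interferon genes had lower medians, 15.5 and 20.5 RPKM. Actb led the housekeeping genes with 121 RPKM against 9.74, 6.2 kb from its TSS, ahead of Ywhaz at 78.5 against 3.52. Rpl32 was lowest with 5.13 against 3.81. The 23 measured genes of other tissues had a median of 5.60 RPKM, under the median of all genes, and 16 were higher. They included Gcg, the glucagon gene, with 94.2 against 8.30, and Apoa1, a liver apolipoprotein gene, with 62.6 against 4.75 in an intron 59.6 kb away. The assigned gene gives a position only, and its expression was not measured.

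Marker genes of other blood cells, which a marrow culture could hold, had medians of 5.99 RPKM for 12 neutrophil genes, 6.29 for 8 B cell genes and 4.09 for 5 erythroid and mast cell genes. The higher calls numbered 7, 6 and 3. T and NK cell genes had a median of 21.2 RPKM, with 9 of 11 higher and 2 at 50 RPKM or more, Klrb1c at 104 against 9.08 and Cd4 at 66.2 against 2.19. Cxcr2 at 60.6 against 5.01, Cd79b at 29 against 2.99 and Kit at 46.2 against 1.5 led the other 3 lists. Ly6g (1.01 RPKM), Pax5 (0.744) and Zap70 (1.71) had the lowest WT levels of the neutrophil, B cell, and T and NK cell lists. Gata1, an erythroid and mast cell gene, had 2.13. Under median-ratio scaling the median log2 ratio of the neutrophil and the erythroid and mast cell lists turned negative, at -0.37 and -0.54, while the B cell and T and NK cell lists stayed above 0. Cell purity was not tested.

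**Figure D4:**
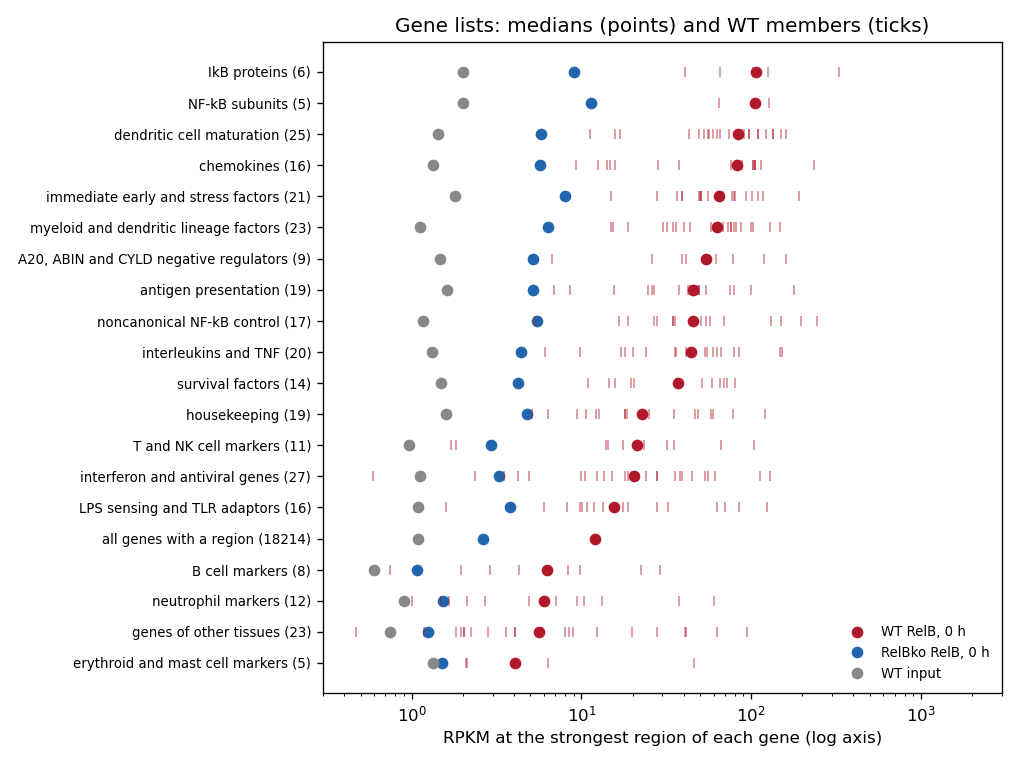
RPKM at the strongest WT region of each gene, on a log axis. Points are medians of each list for WT RelB, RelBko RelB and WT input, ticks are the WT values of the members, and the number of measured genes is in brackets. The IkB and NF-kB subunit lists lead with medians of 106 and 105 RPKM, all genes sit at 12, and only lists of other cell types or tissues fall below that.

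Over the 19 lists 267 of 296 measured genes (90.2%) were higher in WT and none was lower, and 118 (39.9%) reached 50 RPKM, against 79.7% and 10.6% of all genes. Listed genes had a median of 5 regions, against 3 for all genes, and a gene with more regions has more chances of a high maximum. By list that median ran from 2 for erythroid and mast cell markers to 12 for myeloid and dendritic lineage factors. The shares were not adjusted for it, and its part in them was not tested. On the median-ratio scale 138 of the 296 were higher and 7 lower, against 4355 and 1388 of the 18214. The strongest region was a promoter in 10.5% of genes at 50 RPKM or more, against 4 of 5 NF-kB subunit genes and 4 of 6 IkB genes.

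The largest ratios were at sites with almost no RelBko reads. Among compared regions within 100 kb and at 20 RPKM or more in either library, 12512 of 12532 were higher in WT. Of the rest, 19 were within 2-fold and 1, near Mybpc3, was lower. A region higher in WT passes this level through its WT value, so the count follows largely from the filter. Over all compared regions 86.0% were higher. In an intron assigned to Dock9, a Cdc42 exchange factor gene, WT had 84.1 RPKM, RelBko 0.599 from 4 reads and the input 1.59, a ratio of 140.5 (54.7 to 517). Actl6a, a chromatin remodeller subunit gene, had 94.1 against 0.839 RPKM at an intergenic site, and Pkdcc, a secreted kinase gene, 116 against 1.17. Txndc11, Mir7676-2, Gcnt2 and Tmem39a had 60.0 to 105 RPKM in WT against 0.743 to 1.52 in RelBko. The last of the 8, Gm12505, had 32.6 RPKM against 1 read in RelBko, and its ratio of 195 had an interval from 34.9 to 7740. RelBko levels at these 8 regions were at most 1.52 RPKM, against 23.8 at the Nfkbia promoter.

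The smallest ratios among regions at 20 RPKM or more in either library, after Mybpc3, were at sites with 13.5 to 39.1 RPKM in RelBko. Lnpep, an aminopeptidase gene, had 21.1 RPKM in WT, 13.5 in RelBko and 0.892 in the input at its promoter, a ratio of 1.57 (1.09 to 2.30). Zmiz2 and Atxn7l3 had 25.2 and 23.6 RPKM in WT against 16.0 and 14.9 in RelBko, with ratios of 1.58 and 1.59. Trim8 had 23.0 against 13.8. Filip1l, Cdk8 and G530011O06Rik had 23.4, 31.9 and 66.4 RPKM in WT, but also 5.61, 5.99 and 24.8 RPKM in the input, so the input was raised there as well. The region with the most input signal, at Fam172a, had 41.8 RPKM in WT, 89.2 in RelBko and 78.5 in the input. Next were 2 intron regions of E030024N20Rik, with 59.8 and 58.2 RPKM in the input. None of these regions was enriched over the input in the WT or RelBko library at 0 h. After 1 h with LPS the Fam172a region had 48.2 RPKM in WT RelB, 2803 in RelBko RelB, 238 in WT RelA and 555 in RelBko RelA.

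Sequences could be set beside signal only at promoters. RefSeq gave 32851 promoters of 300 bases (250 before to 50 after the start, GRCm38.p6), and 22862 genes had a single one. Of these genes 6179 matched by gene ID had a region within 300 bp of their TSS. The stricter kB motif was GGGA, any base, then TTTCC, and the looser one was the kB consensus, which contains it. Both strands were searched. The stricter motif occurs in 0.411% and the looser in 8.46% of all promoters.

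Promoters at 20 RPKM or more of basal RelB signal held kB motifs more often than those without a region. The looser motif was in 6.60% of the 16683 promoters without a region, 10.3% of those under 5 RPKM, 8.69% at 5 to 10, 12.5% at 10 to 20, 18.6% at 20 to 50 and 31.2% of the 125 at 50 RPKM or more (39 promoters, 23.7 to 39.8). The stricter motif was rare and its share did not rise steadily. It was in 0.276% of promoters without a region, 0.708% (10 promoters) under 5 RPKM, 0.0970% (2 promoters) at 5 to 10, 0.379% at 10 to 20, 1.77% at 20 to 50 and 6.4% (8 promoters, 3.28 to 12.1) at 50 or more. The top intervals do not overlap those of promoters without a region. Most strong promoters still had no match to either motif in the window.

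The PU.1 motif GAGGAAGT was also more frequent in the top group. It was in 3.17% of promoters without a region (2.92 to 3.45), 2.62% under 5 RPKM, 3.30% at 5 to 10, 4.27% at 10 to 20, 4.64% at 20 to 50 and 10.4% (6.18 to 17.0) at 50 or more. The AP-1 motif TGANTCA was in 9.01% without a region (8.58 to 9.45) and 6.09% under 5 RPKM. It was in 4.12% at 5 to 10 RPKM, 4.33% at 10 to 20 and 7.37% at 20 to 50. At 50 or more it was in 13.6% (8.67 to 20.7), an interval that overlaps the one without a region. That interval lies above the one of all promoters with a region, 5.21% (4.68 to 5.79). For PU.1 the share over all promoters with a region was 3.74% (3.29 to 4.24). The interferon response motif (GAAA, any 2 bases, GAAA) was in 3.67% without a region and 4.0% at 50 RPKM or more. The C/EBP motif TTNNGNAA was in 44.8% and 32.8%. Base composition moved with these shares, with a median GC content of 49.3% in promoters without a region, 64.0% at 10 to 20 RPKM and 61.0% at 50 or more. Its part in the motif shares was not tested. The printed Nfkbia and 4833438C02Rik matches are among the stricter ones, and those of Traf3 and Irf2 fit the looser motif alone. WT levels at the 4 promoters were 328, 212, 244 and 136 RPKM.

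**Figure D5:**
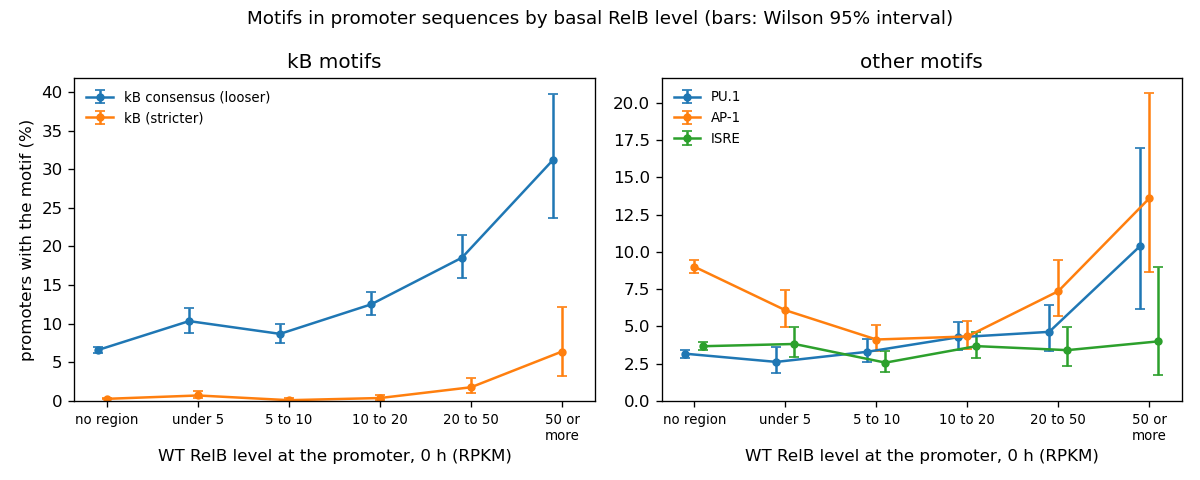
Share of promoters that hold a motif in their 300-base RefSeq sequence, by WT RelB level at 0 h in the region within 300 bp of the start. Bars are 95% Wilson intervals. The looser kB motif goes from 6.60% without a region to 31.2% at 50 RPKM or more, and the PU.1 and AP-1 motifs reach 10.4% and 13.6% in the top group. The AP-1 interval in the top group overlaps that of promoters without a region, but lies above that of all promoters with a region (4.68 to 5.79, not drawn).

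The CpG content of promoters moved with the levels more than with the difference between WT and RelBko. With the 6179 promoters in 3 groups of near-equal size by CpG count, from lowest to highest, the median WT level was 6.95, 8.39 and 11.1 RPKM and the RelBko level 2.51, 3.43 and 4.25. The median difference was 2.44-fold, 2.29-fold and 2.40-fold. WT, RelBko and input (1.16, 1.32 and 1.40 RPKM) therefore moved together with CpG count.

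The strong basal regions also carried signal in the stimulated libraries. After 1 h with LPS, RelB reached 50 RPKM in WT at 2298 of the 3045 (75.5%), with a median of 63.4 RPKM against 67.4 at 0 h. RelA in WT at 1 h reached it at 1288 (42.3%), with a median of 45.8 RPKM, and RelA in RelBko at 1278 (42.0%), with a median of 45.1 RPKM. Over all regions those shares were 3.65%, 2.33% and 2.46%. The regions were picked by their 0 h level in WT, which sets the 0 h median, and each value comes from a single library.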

How the data were processed

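Chromatin was read in unstimulated WT and RelBko BMDCs and in WT input, per the labels. Crosslinking used 1.0 mM of DSG and 1.0% PFA, per the labels' protocols. The sample labels name an anti-RelB antibody, while the shared protocol text names an anti-RelA antibody and, beside LPS, an ODN reagent. The authors deposited RPKM values for regions common to all libraries, with nearest gene, TSS distance and annotation class, per the file headers. HISAT2, HOMER, bedtools and mm9 are named in the submitters' processing notes. Their roles and versions, and the rule that chose the regions, were not given in the sources used here.

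Multiplied by region length, 100% of values were whole reads within 0.01 read, and these read numbers may be 1 too high. Ratios of reads have exact Clopper-Pearson intervals and shares Wilson intervals. The nearest TSS is the deposited one, gene summaries used regions within 100 kb of it, and list genes were matched by symbol. The members and the 19 lists of 313 genes (296 with a region) were chosen with earlier results of these data known. Named were the 20 genes with the highest regions, the 5 highest per class, the 4 highest and the lowest of each list with every member of the first 4 lists, the 10 genes and loci with most signal, the 8 largest and smallest ratios, Relb, and the 3 regions highest in input and in RelBko. Tlr4, Irak4, Tnf, Ccl22, Pdcd1lg2, Ciita, Ifnb1, Oas1a, Irf8, Gata1 and the printed promoters, Irf2 among them, were chosen after their values were seen. One gene that the rule names is not reported here. Pseudocounts, filters, scalings, thresholds and controls were varied. Python 3.11.15, pandas 2.3.3 and scipy 1.17.1 were used. The fold calls were also run on reads simulated with counting noise alone, at regions without the weakest WT levels. That simulation had no overall shift between libraries and no filter step, so it does not check weak regions or the scaling.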

Additional observations from a re-analysis of the deposited data

How the results depend on the processing

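With 1 library per group no replicate could be left out. No paired analysis was possible because each group compared has 1 library and the labels carry no replicate numbers. Of 69 recomputed values 33 stayed close to the reported ones and 36 moved. Scaling to a median ratio of 1 gave 10933 regions higher, 7048 lower, a median log2 ratio of 0 by construction, a promoter share among higher regions of 4.56% in place of 11.2%, 138 list genes higher and 17.1% of net signal in the top 1% of regions. Scaling on regions enriched in neither library gave a median of 1.43, a promoter share of 8.93% and 11.8% of net signal. A 4-fold threshold gave 31223 higher, 156 lower and a promoter share of 6.06%. The LPS-treated RelBko library at 1 h as control gave 104 lower, a median of 2.35, a promoter share of 13.3% and 10.6% of net signal. The input as control gave 0 lower by construction, 2.50, 13.1% and 10.6%. Without the filter on low values 65452 were higher (69.9%) and 824 lower, with a median of 1.54 and a promoter share of 10.8%. At 5 RPKM and 4-fold over input 43624 regions were enriched in WT, 21 were lower, the median was 2.29, the promoter share 13.4% and the median promoter level 13.5 RPKM. A pseudocount of 0.1 gave a median of 2.08, and 2 RPKM gave 1.53 with 159 lower. Taking 1 read off gave 1.95 and 11.1% of net signal, and signal with nothing taken off 9.74%. Without regions of 170 bp or less 64 were lower. The looser kB motif was in 31.2% of strong promoters against 6.4%. Apart from what each setting does by construction, the cause was not tested. At a median of 10 reads per region in RelBko and 4 in the input, ratios of weak regions are not exact.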
